A study of Mus musculus with 24 samples.

Results

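Dendritic cells (DCs) grown from mouse bone marrow with GM-CSF and FLT3L were compared after 24 h in culture with the solvent DMSO and at the start of that day. The comparison covers 6 of the 24 messenger RNA libraries of the series, chosen by their titles: 3 cultures, named DC91, DC94 and DC95, each with a library after 24 h in DMSO and a library at the start (t0), with the culture as a block. Marrow came from hind legs of C57BL/6JRj mice, wild-type or Cas9-EGFP, and the labels do not tell which culture had which genotype. The medium held GM-CSF at 20 ng/ml and FLT3L at 200 ng/ml, and cells were replated on day 9 and were taken on day 16, per the labels (FL cultures). The cells of the DMSO group then spent 24 h with DMSO, in the volume used for the compound AZD5582, which acts against the IAPs, proteins that inhibit apoptosis, while the t0 group was taken on day 16 without solvent. DMSO and a further day in culture thus differ together between the groups and cannot be told apart. The series calls the cultures biological replicates and names the FL cells type 1 conventional DCs (cDC1), while the sample labels say DCs derived from bone marrow. A further 3 FL libraries with 0.05 µM AZD5582 and 6 libraries of cells grown with GM-CSF alone (GM cultures) were used beside them.

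Conventional DCs take up antigen, carry it to lymph nodes and present it to T cells. Type 1 cells depend on the transcription factors Batf3 and Irf8, carry the chemokine receptor XCR1, and are known for presenting antigen from dead cells on MHC class I. When DCs mature, in response to a danger signal or spontaneously, they are known to lose much of their uptake machinery and to gain the receptor CCR7, co-stimulatory molecules and survival signals through the transcription factor NF-kB.

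The DMSO libraries held 34.6, 27.01 and 34.7 M counts on genes in cultures 91, 94 and 95, and the t0 libraries 58.9, 54.2 and 44.3 M; values by culture are given in this order throughout. Mitochondrial genes took 1.96%, 4.46% and 3.21% of the counts of the DMSO libraries and 1.84%, 2.29% and 2.03% of those of the t0 libraries. The DMSO library of culture 91 stood apart from the other two. On the first principal component of the 6 libraries, which held 71.3% of the variance of the 500 most variable genes, the DMSO libraries lay at 69.0, 7.01 and 9.43 and the t0 libraries at -29.5, -27.3 and -28.6. All 3 cultures thus lay on the same side of their start, with culture 91 farthest from it. For this reason changes are given culture by culture, and cultures 94 and 95 show each result without culture 91.

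Of 15025 genes tested in the 6 libraries, no gene reached an adjusted p of 0.05 in either direction (0% of those tested; edgeR's quasi-likelihood test with culture as a block, 2 residual degrees of freedom, smallest adjusted p = 0.1055). At an unadjusted p under 0.05 there were 4391 genes (29.2%), of which 2195 were higher (14.6%) and 2196 lower (14.6%) in DMSO, and DESeq2 with the same design called 1412 genes higher (9.4%) and 1617 lower (10.8%). When the 3 libraries with AZD5582 shared the estimate of the spread (the 9-library fit), edgeR called 1473 of 15961 genes higher (9.23%) and 1634 lower (10.2%). Without culture 91 that fit called 1651 of 16214 genes higher and 1989 lower. Of the calls of that fit, 2675 were among the 3107 made with all cultures. Without culture 94 or without culture 95 it called none, so each count from the 9-library fit below falls to 0 there. Counts of genes are therefore given in 2 ways below: by non-overlap, where all 3 DMSO libraries lay above all 3 t0 libraries (2933 genes, 19.5%) or below them (3424 genes, 22.8%), and by call in the 9-library fit. Counts for a gene list below stand beside these shares of all genes, and a list near them does not stand out. Levels are in CPM, counts scaled to the library total, and changes are log2 of DMSO over t0 from the 6-library fit, ± SE. Where a change is followed by a pair of adjusted p-values, the 6-library fit comes first and the 9-library fit second.

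The change was larger in culture 91 than in cultures 94 and 95 by the counts and medians below, and not all genes shared a direction. Genes at least 2-fold higher in DMSO numbered 2567 (17.1%) in culture 91, 1253 (8.34%) in culture 94 and 1379 (9.18%) in culture 95, while 4384 (29.2%) were higher and 4782 (31.8%) lower by any size in all 3. Genes at least 2-fold lower numbered 3583 (23.8%), 1276 (8.49%) and 1177 (7.83%) in cultures 91, 94 and 95. The median absolute log2 change was 0.769, 0.405 and 0.414, and for 9678 genes the largest of the 3 changes was that of culture 91. Of 649 genes at least 2-fold higher in both culture 94 and culture 95, 587 were higher in culture 91 too and 457 at least 2-fold (3.04% of genes tested), with median log2 changes of 1.84, 1.55 and 1.49. Of 598 genes at least 2-fold lower in cultures 94 and 95, 567 were lower in culture 91 and 518 at least 2-fold (3.45%), with medians of -2.92, -1.58 and -1.49. Few genes changed at least 2-fold in culture 91 and at least 2-fold in the opposite direction in both culture 94 and culture 95. There were 26 genes lower in culture 91 and higher in cultures 94 and 95, and 7 genes the reverse. Across genes, which are not independent replicates, the changes of cultures 91 and 94 correlated at r = 0.519, of 91 and 95 at 0.664 and of 94 and 95 at 0.623.

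**Figure D1:**
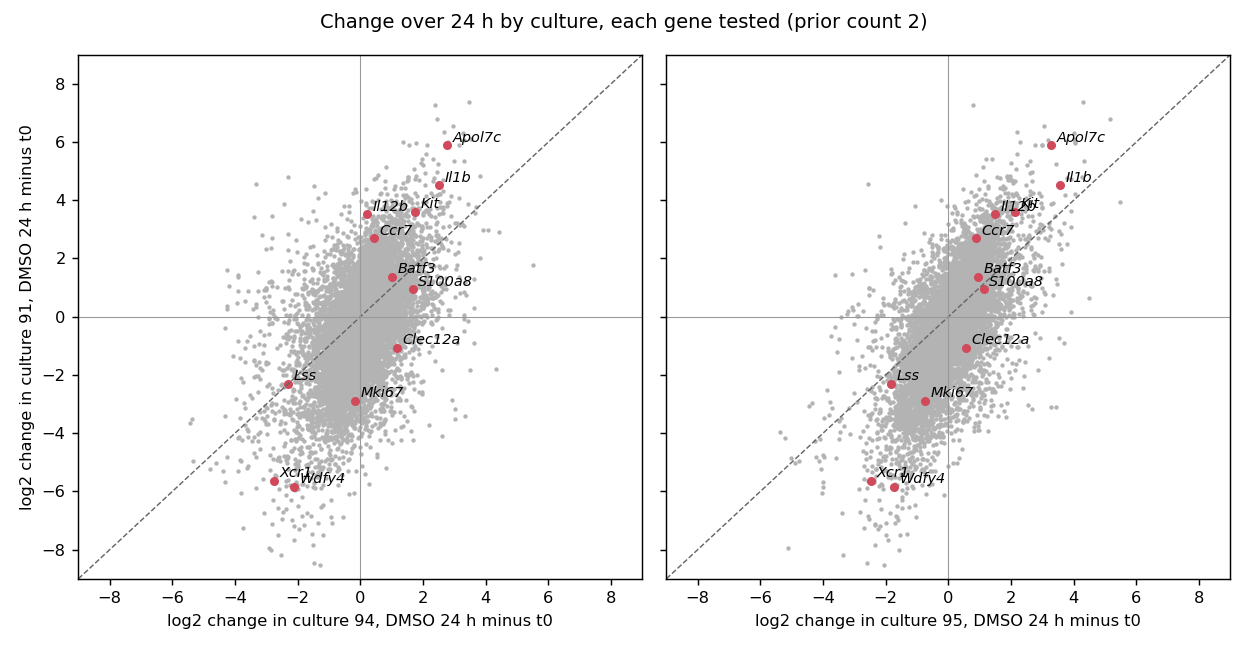
Log2 change over 24 h (DMSO minus t0, prior count 2) of each gene tested in culture 91 (vertical axis) against culture 94 (left) and culture 95 (right), with named genes in red and the line of equal change dashed. Most named genes lie in the same quadrant in both panels and farther from 0 in culture 91, as Apol7c does at 5.89, 2.78 and 3.27 in cultures 91, 94 and 95, while Lss lies on the line in culture 94.

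Markers of cDC1 were abundant at the start and lower after 24 h. The 25 genes of the cDC1 marker list, all with counts, summed to 4268, 3373 and 4043 CPM in DMSO, against 12410, 6411 and 7232 CPM at t0. Of the 24 tested, 16 lay lower and 2 higher without overlap, and the 9-library fit called 10 lower and 2 higher (15 and 2 without culture 91). Their median log2 change was -1.35 over the 6 libraries, against -0.00 for all genes tested, and -2.49, -1.02 and -0.90 in cultures 91, 94 and 95. In bulk RNA, fewer cells of a type and less of an RNA per cell cannot be told apart.

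Xcr1 (ENSMUSG00000060509), the receptor of cDC1 for the chemokine XCL1, stood at 7.94, 16.5 and 27.9 CPM in DMSO, against 396, 111 and 154 CPM at t0. The groups did not overlap, and culture 91 had both the highest start and the lowest end. The log2 change was -3.51 ± 0.75 (adjusted p = 0.109 in the 6-library fit and 0.0205 in the 9-library fit). Wdfy4, needed by cDC1 to cross-present antigen from cells, had 27.6, 146 and 229.7 CPM in DMSO and 1594, 634 and 765 CPM at t0, a change of -3.04 ± 0.97 (adjusted p = 0.136 and 0.0604). Itgae, the integrin chain CD103, stood at 16.5, 92.4 and 156 CPM in DMSO and 939, 302 and 348 CPM at t0 (-2.64 ± 1.08; adjusted p = 0.183 and 0.0811). Both were lower in each culture without overlap and were called in neither fit. Cadm1, an adhesion molecule used as a cDC1 marker, had 28.2, 35.4 and 54.9 CPM in DMSO and 150.4, 96.6 and 102 CPM at t0 (-1.56 ± 0.32; adjusted p = 0.106 and 0.0181). The dead-cell receptor gene Clec9a had 35.7, 49.8 and 78.6 CPM in DMSO and 162, 86.8 and 107 CPM at t0 (-1.11 ± 0.37; adjusted p = 0.146 and 0.0560).

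Further cDC1 markers lay lower as well. Naaa, a lysosomal amidase, stood at 18.9, 162 and 237 CPM in DMSO and 1848, 842 and 1045 CPM at t0. Ppt1, a lysosomal thioesterase, stood at 25.6, 67.8 and 91.7 CPM in DMSO and 623, 249.5 and 291 CPM at t0. The inhibitory receptor gene Btla had 9.95, 42.5 and 75.8 CPM in DMSO and 342, 168 and 197 CPM at t0. Tlr3, the sensor of double-stranded RNA, had 1.27, 13.7 and 17.8 CPM in DMSO and 139, 44.4 and 64.4 CPM at t0. The 9-library fit called Naaa, Ppt1 and Btla lower (adjusted p = 0.0368, 0.0280 and 0.0398) and did not call Tlr3 (adjusted p = 0.0561). Each of these genes lay lower in DMSO in all 3 cultures, and in each the level in culture 91 was the lowest of the DMSO libraries and the highest of the t0 libraries.

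The transcription factors of the lineage did not move together. Batf3 had 114, 98.6 and 109 CPM in DMSO, against 43.9, 49.3 and 56.3 CPM at t0, higher by 1.13 ± 0.17 with nearly the same change in each culture (1.37, 1.00 and 0.96; adjusted p = 0.106 in the 6-library fit and 0.0113 in the 9-library fit). Irf8, its partner, had 1486, 526 and 728 CPM in DMSO and 2026, 1021 and 1089 CPM at t0, and the groups overlapped (-0.64 ± 0.21; adjusted p = 0.139 and 0.0396). Id2, which restrains other lineages, had 972, 846 and 805 CPM in DMSO and 1232, 927 and 984 CPM at t0 (-0.23 ± 0.19; adjusted p = 0.434 and 0.268). Ly75, the endocytic receptor DEC-205, which mature DCs of other types also carry, was the other marker that lay higher without overlap, at 1058, 419.8 and 514 CPM in DMSO and 359, 314 and 321 CPM at t0. The list of integrins and adhesion genes went both ways. Of its 25 genes, 6 lay higher and 10 lower without overlap, and the 9-library fit called 6 higher and 4 lower (9 and 8 without culture 91). Of integrins outside the cDC1 marker list, Itgax, the DC marker CD11c, stood at 36.4, 127 and 161 CPM in DMSO and 465, 325 and 386 CPM at t0 (adjusted p = 0.0271 in the 9-library fit). Cdh1, the adhesion molecule E-cadherin, had 12.2, 195 and 158 CPM in DMSO and 556, 483 and 517 CPM at t0, with the DMSO library of culture 91 far below the other two (adjusted p = 0.0519).

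**Figure D2:**
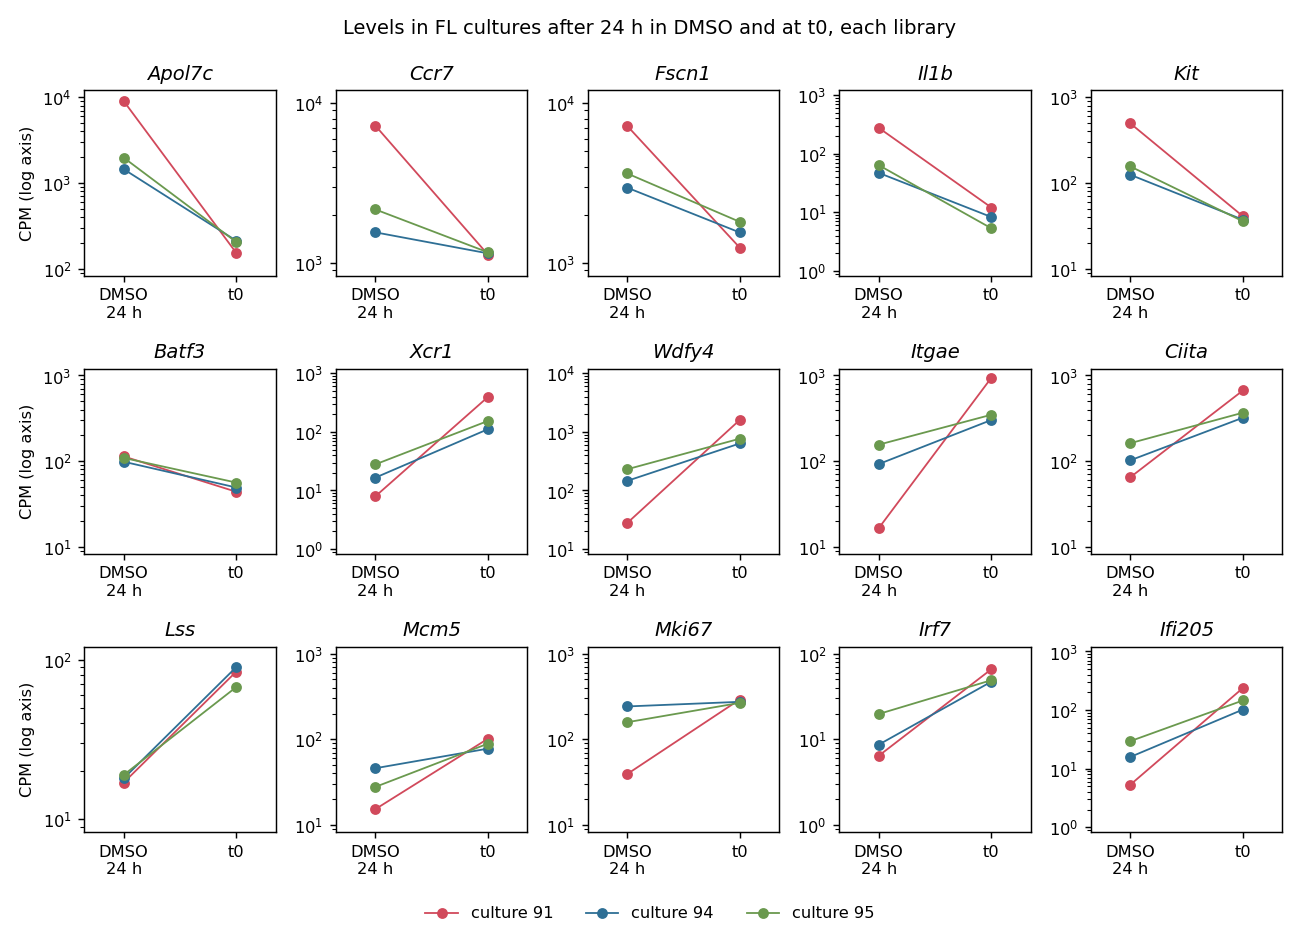
CPM (log axis) of 15 named genes in each of the 6 libraries, DMSO after 24 h on the left and t0 on the right of each panel, with a line joining the 2 libraries of a culture. Apol7c, Ccr7, Fscn1, Il1b, Kit and Batf3 lie higher in DMSO in all 3 cultures and the other 9 genes lower, and for Xcr1, Wdfy4 and Itgae the line of culture 91 is the steepest.

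Genes of DC maturation were higher after 24 h. Of 40 genes tested, 32 lay higher without overlap and 1 lower, and the 9-library fit called 28 higher and none lower (32 and 2 without culture 91). The median log2 change was 1.33, with 2.31, 0.71 and 0.91 in cultures 91, 94 and 95. Ccr7, the receptor that guides DCs to lymph nodes, stood at 7232, 1552 and 2159.6 CPM in DMSO, against 1124, 1146 and 1163 CPM at t0. The t0 libraries were nearly equal, and the DMSO library of culture 91 lay far above those of the other two (1.34 ± 0.51; adjusted p = 0.170 in the 6-library fit and 0.0632 in the 9-library fit). Fscn1, the actin-bundling protein fascin of mature DCs, had 7228, 2959 and 3632 CPM in DMSO and 1245, 1549 and 1807 CPM at t0 (within-culture log2 changes of 2.54, 0.93 and 1.01; adjusted p = 0.121 and 0.0291). The chemokine gene Ccl22, which draws regulatory T cells, had 7556, 4298 and 5165 CPM in DMSO and 2354, 2297 and 2794 CPM at t0 (1.18 ± 0.27; adjusted p = 0.111 and 0.0288). Apol7c, an apolipoprotein L gene of cDC1 with near copies that may share its reads, had the highest fold of the list, with 9038, 1450.1 and 1975 CPM in DMSO and 153, 212 and 204 CPM at t0 (3.93 ± 0.75; adjusted p = 0.106 and 0.0161).

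Of the cytokine genes of mature DCs, Il15 lay higher in each culture and Il12b varied. Il15, which sustains memory T cells and natural killer cells, stood at 102, 39.5 and 42.8 CPM in DMSO and 19.6, 18.4 and 17.7 CPM at t0. The gene of its presenting receptor chain, Il15ra, stood at 192, 89.6 and 94.5 CPM in DMSO and 37.2, 45.5 and 41.7 CPM at t0. Both were called higher in the 9-library fit (adjusted p = 0.0171 and 0.0181). Il12b, the p40 subunit of IL-12, had 1847, 108 and 215 CPM in DMSO and 162, 93.5 and 75.8 CPM at t0. The groups overlapped, with culture 91 far above its start and culture 94 close to it (1.74 ± 0.70; adjusted p = 0.181 and 0.110).

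Co-stimulatory genes differed among themselves. Cd40, the receptor for help from T cells, stood at 232, 73.2 and 90.3 CPM in DMSO and 49.7, 48.2 and 59.6 CPM at t0 (1.15 ± 0.39; adjusted p = 0.148 and 0.0469). Of the ligands of CD28, Cd80 had 239, 280.0 and 290.4 CPM in DMSO and 167, 188 and 212 CPM at t0 (0.53 ± 0.16; adjusted p = 0.131 and 0.0554). The groups of Cd86 overlapped, with 277, 371 and 385 CPM in DMSO and 329.8, 289 and 339.7 CPM at t0 (0.12 ± 0.20; adjusted p = 0.716 and 0.682). Tnfsf4, the OX40 ligand, had 177, 39.4 and 55.4 CPM in DMSO and 14.4, 17.2 and 17.3 CPM at t0. Cd274, the inhibitory ligand PD-L1, had 1032, 341 and 472 CPM in DMSO and 214, 212 and 230.5 CPM at t0. Both were called higher in the 9-library fit (adjusted p = 0.0239 and 0.0280). Ccl17, a chemokine for T cells, was the member that lay lower, with 67.8, 269 and 246 CPM in DMSO and 334, 317 and 384 CPM at t0 (-1.02 ± 0.45; adjusted p = 0.208 and 0.0819).

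NF-kB genes were higher, most of all in culture 91. Of 25 tested, 16 lay higher without overlap and none lower, and the 9-library fit called 10 higher (10 without culture 91) and none lower. The median log2 change was 0.85, with 1.69, 0.27 and 0.62 in cultures 91, 94 and 95. Nfkbia, the inhibitor that NF-kB itself induces, stood at 567, 351 and 348 CPM in DMSO, against 176, 207 and 213 CPM at t0 (1.07 ± 0.27; adjusted p = 0.115 and 0.0255). Relb, the subunit of the non-canonical pathway, had 1028, 287 and 423 CPM in DMSO and 179.6, 212 and 221 CPM at t0 (1.30 ± 0.46; adjusted p = 0.153 and 0.0537). Its partner Nfkb2 had 1047, 284 and 402 CPM in DMSO and 246, 236 and 261 CPM at t0 (1.00 ± 0.42; adjusted p = 0.187 and 0.0822). The IAP genes Birc2 and Birc3, which encode the ubiquitin ligases cIAP1 and cIAP2, were called higher in the 9-library fit (adjusted p = 0.0246 and 0.0265). Birc2 had 610.3, 264 and 309.5 CPM in DMSO and 124, 161 and 143 CPM at t0. Birc3 had 539, 236 and 273 CPM in DMSO and 157, 155 and 151 CPM at t0. Rela, Chuk and Nfkb1 were called in neither fit.

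The promoter of Nfkbia is shown because it holds letters of the kB motif, which NF-kB is known to bind. It spans 250 bases before to 50 after the transcription start at chr12:55492598-55492897, minus strand (RefSeq, build GRCm38.p6), with the match to the kB letters searched, GGGA, any base and then TTTCC, here on the opposite strand, in capitals.
Nfkbia: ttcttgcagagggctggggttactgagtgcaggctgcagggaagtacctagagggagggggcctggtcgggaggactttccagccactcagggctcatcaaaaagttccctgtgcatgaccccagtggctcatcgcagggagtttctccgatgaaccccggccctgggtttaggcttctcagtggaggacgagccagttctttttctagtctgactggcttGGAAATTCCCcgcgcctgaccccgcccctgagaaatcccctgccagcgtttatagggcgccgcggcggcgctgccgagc
That motif was found on either strand in 4 of 21 NF-kB genes with a promoter in the table (19.0%) and in 126 of 27025 genes in all (0.466%). Among genes called in the 9-library fit it was found in 8 of 1080 higher (0.741%) and 4 of 1265 lower (0.316%), and in 60 of 10536 genes tested (0.569%). A match describes letters in this window and not binding.

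Cytokine genes differed among themselves. Without overlap, 4 of 22 lay higher and 3 lower, no more than the 19.5% and 22.8% of all genes tested. The 9-library fit called 4 higher and 2 lower (6 and 3 without culture 91), beside 9.23% and 10.2% of all genes. Il1b, a cytokine of innate alarm, stood at 277, 47.1 and 63.8 CPM in DMSO, against 12.1, 8.296 and 5.33 CPM at t0, higher in each culture (3.56 ± 0.45; adjusted p = 0.106 and 0.0134). Il1rn, the antagonist of the same receptor, had 109, 86.03 and 83.3 CPM in DMSO and 23.3, 24.6 and 32.96 CPM at t0, and was called higher in the 9-library fit (adjusted p = 0.0161). Tnf had 2.55, 21.9 and 17.6 CPM in DMSO and 43.7, 18.2 and 39.8 CPM at t0. Il6 had 16.9, 26.2 and 23.8 CPM in DMSO and 7.01, 29.7 and 17.01 CPM at t0. In both genes the groups overlapped. Of 18 chemokine genes tested, 7 lay higher and 2 lower without overlap, and the 9-library fit called 6 higher and none lower (8 and 2 without culture 91). Cxcl16, the ligand of CXCR6, had 1454, 588 and 659 CPM in DMSO and 295, 304 and 318 CPM at t0 (1.45 ± 0.35; adjusted p = 0.112 and 0.0211). Ido1, which degrades tryptophan, had 132, 49.02 and 61.1 CPM in DMSO and 5.71, 11.6 and 10.97 CPM at t0 (3.02 ± 0.56; adjusted p = 0.106 and 0.0168).

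Most MHC class II genes lay lower, while the median of class I genes was near 0 outside culture 91. Of 16 class II genes, 11 lay lower and 1 higher without overlap, and the 9-library fit called 8 lower and none higher (10 and 1 without culture 91), with medians of -1.02, -0.89 and -0.44 in the 3 cultures. Ciita, the master regulator of class II, stood at 64.97, 102 and 162 CPM in DMSO, against 669, 322 and 368 CPM at t0, with no overlap (-2.03 ± 0.48; adjusted p = 0.111 and 0.0198). The class II chain gene H2-Ab1 had 1104, 2192 and 2643 CPM in DMSO and 6262, 4896 and 5300.0 CPM at t0 (-1.53 ± 0.37; adjusted p = 0.113 and 0.0204). The other chain of that molecule, H2-Aa, had 4508, 3352 and 4177 CPM in DMSO and 6679, 5563 and 5532 CPM at t0 (-0.55 ± 0.21; adjusted p = 0.166 and 0.0694). H2-DMa, part of the peptide editor of class II, had 87.3, 263 and 309 CPM in DMSO and 689.7, 553 and 616 CPM at t0. Cd74, the invariant chain, had 7402, 6861 and 10031 CPM in DMSO and 15847, 12681 and 13603 CPM at t0. Both were called lower in the 9-library fit (adjusted p = 0.0267 and 0.0399). The member that lay higher was Lgmn, the protease legumain, at 1178, 318 and 432 CPM in DMSO and 237, 216 and 264 CPM at t0 (adjusted p = 0.0506).

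Of 23 class I genes, 10 lay higher and 4 lower without overlap, and the 9-library fit called 3 of each (4 of each without culture 91). The medians were 0.92, 0.02 and 0.12 in cultures 91, 94 and 95, and the difference between the classes was not tested. B2m, the light chain of class I, had 7893, 3451 and 3851 CPM in DMSO and 2442, 2368 and 2439 CPM at t0 (0.98 ± 0.32; adjusted p = 0.138 and 0.0454). The heavy chain gene H2-K1 had 3286, 1602 and 1926 CPM in DMSO and 1104, 1196 and 1243 CPM at t0 (0.89 ± 0.30; adjusted p = 0.147 and 0.0554). The peptide transporter gene Tap1 had 459, 224 and 278 CPM in DMSO and 387, 286 and 329.7 CPM at t0, with overlap. The chaperone genes Calr and Pdia3, which also serve the endoplasmic reticulum at large, were called lower (adjusted p = 0.0189 and 0.0189).

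Type I interferon response genes were lower. Of 40 tested, 28 lay lower and 1 higher without overlap, and the 9-library fit called 23 lower and 1 higher (28 and 1 without culture 91). The median log2 change was -1.17, with -1.35, -1.09 and -0.82 in cultures 91, 94 and 95, so the cultures lay closer together here than for maturation. Irf7, the factor that amplifies the response, stood at 6.43, 8.67 and 19.8 CPM in DMSO, against 65.8, 47.1 and 49.02 CPM at t0 (-2.34 ± 0.43; adjusted p = 0.106 and 0.0180). Dhx58, a regulator of RNA sensing, had 22.8, 13.1 and 20.2 CPM in DMSO and 71.8, 54.96 and 63.9 CPM at t0 (-1.77 ± 0.17; adjusted p = 0.106 and 0.00631). Oas3, an enzyme of the antiviral OAS family, had 12.5, 19.2 and 27.2 CPM in DMSO and 101, 64.2 and 71.1 CPM at t0 (-2.01 ± 0.36; adjusted p = 0.106 and 0.0155). Ifi205, of a family with near copies, had 5.32, 15.9 and 29.5 CPM in DMSO and 239, 102 and 146 CPM at t0 (-3.39 ± 0.73; adjusted p = 0.109 and 0.0199). The groups overlapped for Isg15, with 78.9, 20.5 and 30.1 CPM in DMSO and 34.2, 37.4 and 44.2 CPM at t0. Herc6 was the member that lay higher, at 141, 53.5 and 73.4 CPM in DMSO and 41.2, 40.7 and 48.2 CPM at t0.

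Genes of the type II response went both ways, with 7 of 22 higher and 8 lower without overlap and 6 called in each direction (7 higher and 9 lower without culture 91). The guanylate-binding protein gene Gbp2 stood at 1012, 419 and 494 CPM in DMSO, against 175, 146 and 194 CPM at t0. Its relative Gbp4 stood at 233, 75.3 and 86.7 CPM in DMSO and 20.2, 31.1 and 29.7 CPM at t0. Irf1, a factor of the same response, had 858, 275 and 362 CPM in DMSO and 130.2, 138 and 170.4 CPM at t0. All 3 were called higher in the 9-library fit (adjusted p = 0.0148, 0.0234 and 0.0253), while the immunity-related GTPase gene Irgm1 was called lower (adjusted p = 0.0180).

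The promoter of Oas3 (RefSeq, GRCm38.p6, chr5:120777610-120777909, minus strand) is shown with its match to letters of the interferon-stimulated response element (ISRE), a pair of TTTC runs set 2 bases apart, here on the opposite strand, in capitals.
Oas3: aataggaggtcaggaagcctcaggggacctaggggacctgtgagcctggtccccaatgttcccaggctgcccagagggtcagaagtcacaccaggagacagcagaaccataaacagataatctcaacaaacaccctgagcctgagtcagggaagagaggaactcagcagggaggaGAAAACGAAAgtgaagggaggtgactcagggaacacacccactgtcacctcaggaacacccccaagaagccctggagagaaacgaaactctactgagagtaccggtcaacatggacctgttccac
The motif was found in 15 of 27 type I response genes with a promoter (55.6%) and in 3.99% of all genes in the table. Among genes called in the 9-library fit it was in 5.0% of those higher and 4.82% of those lower, against 4.02% of genes tested.

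Cell cycle genes were lower in every culture. All 25 DNA replication genes lay lower in DMSO without overlap, and the 9-library fit called 16 of them (16 without culture 91), with medians of -2.64, -0.62 and -1.20. Mcm5, a subunit of the replicative helicase, stood at 15.3, 46.1 and 27.9 CPM in DMSO, against 102, 78.03 and 89.3 CPM at t0 (-1.70 ± 0.41; adjusted p = 0.113 and 0.0287). Cdc6, which loads that helicase, had 4.86, 9.202 and 6.27 CPM in DMSO and 24.2, 18.5 and 21.7 CPM at t0 (-1.68 ± 0.31; adjusted p = 0.106 and 0.0181). Ccne1, the cyclin of entry into S phase, had 5.09, 17.2 and 14.8 CPM in DMSO and 36.2, 31.8 and 41.9 CPM at t0 (-1.70 ± 0.42; adjusted p = 0.113 and 0.0207). In each of these the DMSO library of culture 91 was the lowest of the 6.

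Of 25 mitosis genes, 23 lay lower without overlap and none higher, and the 9-library fit called 6 (7 without culture 91), with medians of -3.33, -0.49 and -1.22. Aurka, a kinase of the spindle, had 3.08, 21.3 and 14.3 CPM in DMSO and 32.6, 33.5 and 36.4 CPM at t0 (-1.73 ± 0.58; adjusted p = 0.144 and 0.0451). Mki67, the proliferation marker Ki-67, had 39.2, 242 and 158 CPM in DMSO and 292, 274 and 266 CPM at t0, near its start in culture 94 and far below it in culture 91 (-1.22 ± 0.59; adjusted p = 0.234 and 0.0996).

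A promoter of each kind is shown, Cdc6 (chr11:98907901-98908200, plus strand) with its match to TTTNNCGC, letters of the E2F site, on the opposite strand, and Aurka (chr2:172370521-172370820, minus strand) with its match to TTTGAA, the cell cycle homology region (CHR), both in capitals and both from RefSeq, GRCm38.p6.
Cdc6: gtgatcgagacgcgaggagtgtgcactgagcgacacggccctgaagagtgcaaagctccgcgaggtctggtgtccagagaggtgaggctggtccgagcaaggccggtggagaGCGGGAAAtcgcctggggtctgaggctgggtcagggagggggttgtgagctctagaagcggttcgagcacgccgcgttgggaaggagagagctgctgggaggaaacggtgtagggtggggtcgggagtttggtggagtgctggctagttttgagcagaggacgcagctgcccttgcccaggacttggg
Aurka: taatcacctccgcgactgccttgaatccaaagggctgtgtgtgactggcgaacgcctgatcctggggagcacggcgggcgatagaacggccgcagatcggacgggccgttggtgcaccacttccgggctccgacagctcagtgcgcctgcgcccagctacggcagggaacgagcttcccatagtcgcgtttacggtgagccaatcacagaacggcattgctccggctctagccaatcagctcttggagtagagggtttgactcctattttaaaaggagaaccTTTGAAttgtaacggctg
The E2F letters were in 9 of 19 DNA replication genes with a promoter (47.4%), against 5.93% of all genes, and the CHR letters in 16 of 21 mitosis genes (76.2%), against 20.2% of all genes. Genes called lower in the 9-library fit held them in 11.0% and 15.4% of promoters, against 9.61% and 14.9% of genes tested.

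Lipid synthesis genes were lower, with medians that lay close together in the 3 cultures. Of 23 cholesterol synthesis genes tested, 16 lay lower without overlap and none higher, with medians of -0.67, -0.99 and -1.04, and the 9-library fit, which tested 24, called 16 lower and none higher. Of the 23 tested in both fits it called 15, and 21 without culture 91. Lss, the enzyme that closes the sterol rings, stood at 16.9, 18.01 and 18.9 CPM in DMSO, against 84.2, 89.8 and 67.3 CPM at t0, with little spread within either group (-2.13 ± 0.17; adjusted p = 0.106 in the 6-library fit and 0.00631 in the 9-library fit). Insig1, the sterol sensor of the pathway, had 48.3, 48.1 and 40.4 CPM in DMSO and 175, 162 and 127 CPM at t0 (-1.73 ± 0.15; adjusted p = 0.106 and 0.00631). Sqle and Idi1, enzymes that act before Lss in the pathway, lay higher than at t0 in culture 91 and lower in cultures 94 and 95, with Sqle at 179.9, 63.6 and 72.6 CPM in DMSO and 152, 126 and 114 CPM at t0.

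Genes of LXR and PPARg lipid handling went both ways. Of the 19 genes of that list, 8 lay lower and 3 higher without overlap, and 6 were called lower and 1 higher (7 and 3 without culture 91). Fasn, the fatty acid synthase, stood at 33.02, 33.5 and 48.9 CPM in DMSO, against 383, 228 and 241 CPM at t0 (-2.84 ± 0.29; adjusted p = 0.106 and 0.00794). The desaturase gene Scd1 had 15.3, 15.7 and 15.7 CPM in DMSO and 162, 123 and 89.3 CPM at t0 (-2.94 ± 0.22; adjusted p = 0.106 and 0.00631). Its relative Scd2 had 47.3, 189 and 157 CPM in DMSO and 1171, 886 and 864 CPM at t0. Srebf1, the factor that drives lipid synthesis, had 31.7, 35.6 and 32.4 CPM in DMSO and 105, 83.6 and 85.8 CPM at t0. All 4 were called lower in the 9-library fit. Scd2 was much lower in the DMSO library of culture 91 than in those of the other two. Nr1h3, which encodes the receptor LXR alpha, was the member called higher with all cultures, at 2.31, 1.62 and 2.92 CPM in DMSO and 0.380, 0.639 and 0.867 CPM at t0 (adjusted p = 0.0199).

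Genes of protein folding and of glycolysis lay lower more often than higher. Of 18 unfolded protein response genes, 13 lay lower and 2 higher without overlap, and 10 were called lower and 1 higher (13 and 2 without culture 91). Hspa5, the main chaperone of the endoplasmic reticulum, had 275, 309 and 308 CPM in DMSO and 750.4, 607 and 598 CPM at t0 (-1.11 ± 0.20; adjusted p = 0.106 and 0.0134). Of 25 glycolysis and hypoxia genes, 13 lay lower and 2 higher without overlap, with 9 called lower and 2 higher (10 and 2 without culture 91). Pfkp, a phosphofructokinase, had 107, 86.03 and 96.9 CPM in DMSO and 501, 362 and 409 CPM at t0. Pfkfb3, which stimulates that step, had 3271, 797 and 1014 CPM in DMSO and 387, 460.3 and 456 CPM at t0. The growth factor gene Vegfa had 24.4, 16.6 and 18.3 CPM in DMSO and 4.64, 7.56 and 3.91 CPM at t0. The 9-library fit called Pfkp lower (adjusted p = 0.00730) and Pfkfb3 and Vegfa higher (adjusted p = 0.0382 and 0.0152). The amino acid response list went both ways, with 9 of 21 lower and 5 higher without overlap and 7 called lower and 2 higher, with and without culture 91. Its member Slc7a5, an importer of large amino acids, had 31.04, 47.6 and 43.4 CPM in DMSO and 204, 172 and 182 CPM at t0 (-2.19 ± 0.23; adjusted p = 0.106 and 0.00639).

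**Figure D3:**
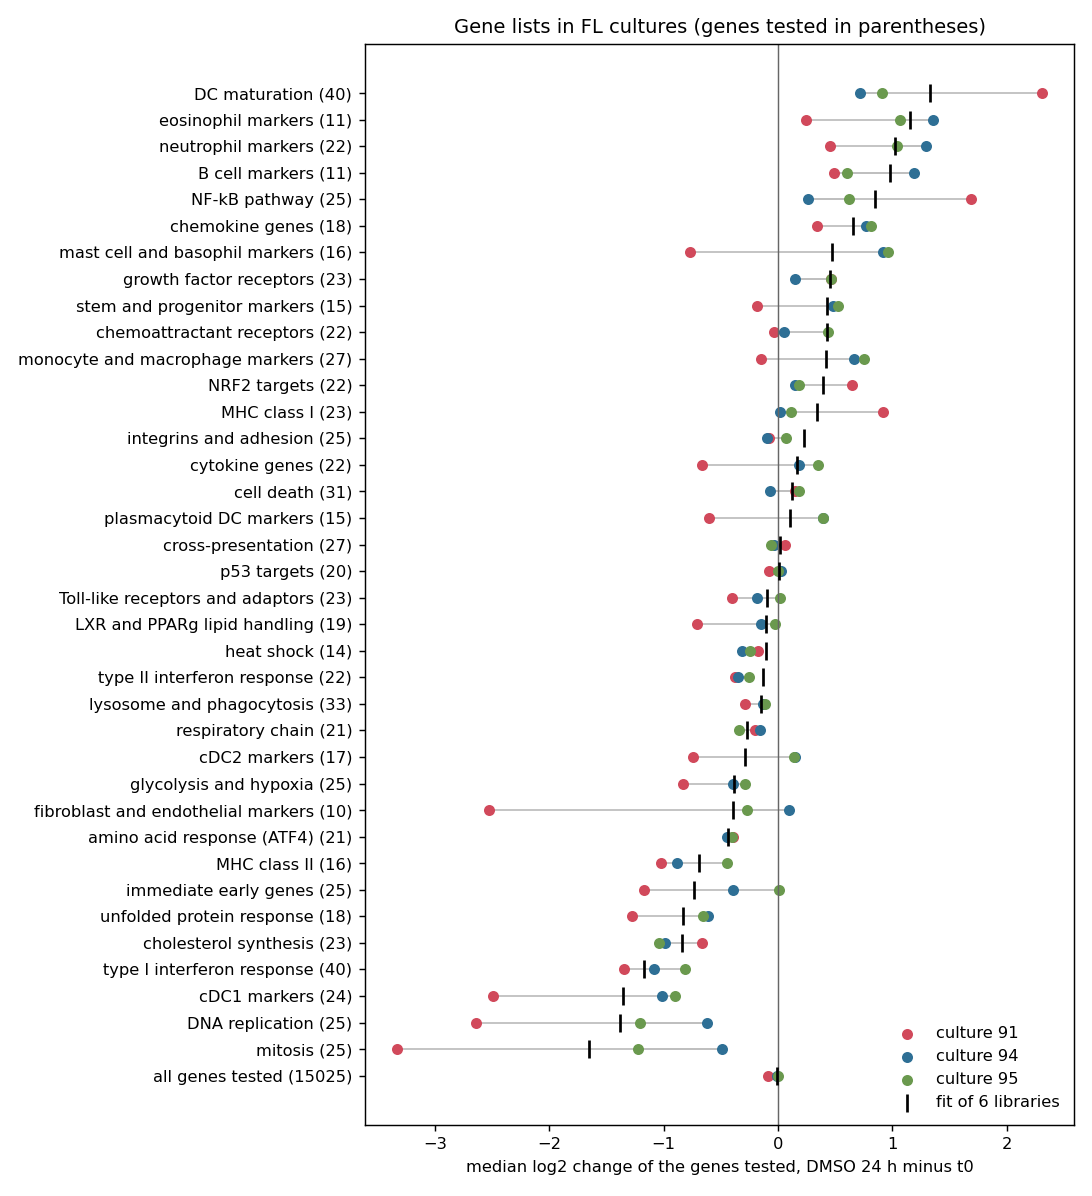
Median log2 change (DMSO minus t0) of each gene list with at least 10 genes tested, in cultures 91, 94 and 95 (points) and in the 6-library fit (bars), with all genes tested at the bottom. DC maturation lies highest, at 1.33, and mitosis lowest, at -1.65, with culture 91 farthest from 0 in both, while cholesterol synthesis lies between -1.04 and -0.67 in the 3 cultures.

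Receptors of growth factors lay higher more often than lower. Kit, the receptor of stem cell factor, which mast cells and progenitors carry and some DCs express, stood at 496, 125 and 156 CPM in DMSO, against 40.8, 37.2 and 35.7 CPM at t0, with start levels nearly equal (2.50 ± 0.43; adjusted p = 0.106 and 0.0148). Il7r had 131, 74.5 and 107 CPM in DMSO and 43.2, 44.1 and 45.3 CPM at t0 (1.22 ± 0.21; adjusted p = 0.106 and 0.0161). Flt3, the receptor of FLT3L, had 655, 209.6 and 309.7 CPM in DMSO and 309, 176 and 202 CPM at t0, with overlap (0.67 ± 0.23; adjusted p = 0.146 and 0.0499). Of 23 genes, 8 lay higher and 2 lower without overlap, and the 9-library fit called 7 higher and 1 lower, the TGF-beta receptor gene Tgfbr2 (adjusted p = 0.0330), and 7 and 2 without culture 91. Csf2rb, the chain shared by the receptors of GM-CSF, IL-3 and IL-5, had 4519, 1904 and 2727 CPM in DMSO and 1898, 1908 and 1811 CPM at t0.

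Cell death genes went both ways. Without overlap, 11 of 31 lay higher and 7 lower, beside 19.5% and 22.8% of all genes tested. The 9-library fit called 6 higher and 2 lower (8 and 4 without culture 91), beside 9.23% and 10.2% of all genes. Bcl2l11, which encodes the death inducer BIM, had 349, 169 and 256 CPM in DMSO and 103, 93.1 and 103 CPM at t0 (1.33 ± 0.23; adjusted p = 0.106 and 0.0152). Bcl2, the survival gene, had 1.37, 18.3 and 10.8 CPM in DMSO and 20.8, 27.9 and 28.2 CPM at t0 (adjusted p = 0.0555). Of immediate early genes, 8 of 25 lay lower and 3 higher without overlap, and 5 were called lower and 1 higher (6 and 3 without culture 91). Egr3, a transcription factor of that class, had 1.37, 5.53 and 5.12 CPM in DMSO and 215, 74.6 and 33.5 CPM at t0, with a start that itself ranged widely (-4.36 ± 1.01; adjusted p = 0.111 and 0.0375). Nr4a2 was called higher (adjusted p = 0.0282), at 97.7, 34.2 and 32.7 CPM in DMSO and 25.7, 20.9 and 13.03 CPM at t0.

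The largest changes called in the 9-library fit lay outside these groups in part. Among protein-coding genes with at least 10 CPM in a group, Mest, an imprinted gene, had 58.5, 6.72 and 11.1 CPM in DMSO and 0.696, 0.656 and 0.646 CPM at t0 (4.63 ± 0.72; adjusted p = 0.106 and 0.0119). Prkg1, a kinase activated by cyclic GMP, had 26.99, 7.65 and 5.33 CPM in DMSO and 0.253, 0.951 and 0.605 CPM at t0 (4.15 ± 0.90; adjusted p = 0.109 and 0.0189). Id3, an inhibitor of DNA binding, had 34.4, 38.9 and 60.3 CPM in DMSO and 1.23, 7.53 and 4.34 CPM at t0 (3.66 ± 0.53; adjusted p = 0.106 and 0.0161). Adam33, a metalloprotease, had 12.1, 11.5 and 12.4 CPM in DMSO and 1.08, 1.52 and 1.15 CPM at t0, close to equal in the 3 cultures at each time (adjusted p = 0.0111). In the other direction, Hemgn, a factor known from haematopoietic progenitors, had 0, 0.496 and 0.418 CPM in DMSO and 26.5, 18.2 and 22.6 CPM at t0 (-6.26 ± 0.90; adjusted p = 0.106 and 0.0139). Hcar2, the receptor of nicotinic acid, had 1.54, 13.7 and 13.1 CPM in DMSO and 59.6, 67.5 and 64.5 CPM at t0 (adjusted p = 0.0345). Mfsd2a, a lipid transporter, had 0.402, 5.99 and 4.33 CPM in DMSO and 46.1, 33.4 and 31.03 CPM at t0 (adjusted p = 0.0262). The widest spread of change over the cultures was that of Cd300e, Cd209e, Cd209c, Coro2b, Tnfrsf13c and Ankle1. The lectin gene Cd209c, for example, had 0.938, 35.4 and 49.7 CPM in DMSO and 173, 102 and 124 CPM at t0, within-culture log2 changes of -7.47, -1.53 and -1.32. In each of the 6 the DMSO library of culture 91 was the lowest of the 3.

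Markers of other cells were present in all 6 libraries and differed between cultures. The 22 neutrophil markers summed to 2527, 12287 and 5109 CPM in DMSO, against 1597, 5281 and 2685 CPM at t0, so culture 94 held the most at both times. Each culture was higher after 24 h, and the groups overlapped. Of these 22 genes, 3 lay higher without overlap and none lower. Non-overlap does not use the pairing of libraries by culture, and the cultures differed in their start levels. Counted within cultures, 16 lay higher in all 3 and none lower in all 3, beside 29.2% and 31.8% of all genes tested. The 9-library fit called 3 higher and 6 without culture 91. Beside this list and those below, 19.5% of all genes tested lay higher and 22.8% lower without overlap. The 9-library fit called 9.23% of all genes higher and 10.2% lower. Retnlg, a secreted resistin-like protein of neutrophils, had 9.18, 28.5 and 17.1 CPM in DMSO and 1.01, 3.15 and 2.14 CPM at t0 (3.14 ± 0.21; adjusted p = 0.106 and 0.0109). S100a8, a calcium-binding protein abundant in neutrophils, had 407, 2706 and 957 CPM in DMSO and 211, 851 and 437 CPM at t0 (1.27 ± 0.24; adjusted p = 0.106 and 0.171). The 11 eosinophil markers summed to 286, 2714 and 1265 CPM in DMSO and 274, 993 and 554 CPM at t0, with 2 called higher and 8 without culture 91. Of these 11, 7 lay higher in all 3 cultures and none lower in all 3. The 21 mast cell and basophil markers summed to 680, 2014 and 1115 CPM in DMSO and 531, 1283 and 731 CPM at t0, with 2 called higher and 10 without culture 91. Of the 16 tested, 5 lay higher and 1 lower in all 3 cultures. Kit alone held 496, 125 and 156 CPM in DMSO. The mast cell genes Cpa3 (104, 709 and 412 CPM in DMSO and 100.2, 411 and 195 CPM at t0) and Gata2 (7.27, 117 and 51.4 CPM in DMSO and 15.8, 88.6 and 41.1 CPM at t0) had overlapping groups. The 30 monocyte and macrophage markers summed to 1770, 2678 and 2932 CPM in DMSO and 1970, 1763 and 2161 CPM at t0, with 7 of 27 higher without overlap and none lower, and 2 called higher and 12 without culture 91. Of the 27, 11 lay higher and 4 lower in all 3 cultures. None of these 4 lists had a gene called lower with or without culture 91. Trem2, a receptor of macrophages, had 10.2, 9.17 and 16.6 CPM in DMSO and 5.79, 4.49 and 7.87 CPM at t0 and was called higher (adjusted p = 0.0300). The 18 cDC2 markers summed to 465, 836 and 814 CPM in DMSO and 921, 878 and 914 CPM at t0. Their members went both ways, with 3 of 17 tested higher and 5 lower without overlap and 1 called in each direction. Their median log2 changes were -0.74, 0.15 and 0.14. The 19 plasmacytoid DC markers summed to 623, 589.6 and 588 CPM in DMSO and 388, 494 and 483 CPM at t0, without overlap, with 3 of 15 tested higher and 2 lower without overlap and 3 called higher and 2 lower (4 and 2 without culture 91). The 15 stem and progenitor markers, Kit and Flt3 among them, summed to 1357, 859 and 875 CPM in DMSO and 735, 689 and 658 CPM at t0, without overlap, with 4 higher and 1 lower without overlap and 3 called higher and none lower (5 and 1 without culture 91). T and NK cell markers summed to 37.05 to 47.6 CPM in DMSO and 26.3 to 56.4 CPM at t0. B cell markers summed to 21.2 to 76.9 CPM in DMSO and 96.4 to 108 CPM at t0, but most members did not follow this sum. The median log2 change of the 11 B cell markers tested was 0.97, with 1 higher and 2 lower without overlap and 1 called higher and none lower. Of these lists, 1 mast cell, 1 B cell and 2 T and NK cell markers had no count in any of the 6 libraries. The part of these cells in the changes of other genes was not tested. Culture 91 had the lowest neutrophil, eosinophil and mast cell sums of the 3 cultures at both times. Its median changes of cDC1 markers (-2.49) and of DC maturation genes (2.31) were the largest of the 3. So was its median absolute log2 change over all genes tested, at 0.769 against 0.405 and 0.414 in cultures 94 and 95. A link between these sums and the changes was not tested.

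The 3 FL cultures with 0.05 µM AZD5582 for the same 24 h share their DMSO libraries with this comparison, so their levels are only set beside it. Xcr1 had 1.73, 2.85 and 1.87 CPM with AZD5582, 7.94, 16.5 and 27.9 CPM in DMSO and 396, 111 and 154 CPM at t0. Ccr7 had 8147, 2970.2 and 4511 CPM with AZD5582, 7232, 1552 and 2159.6 CPM in DMSO and 1124, 1146 and 1163 CPM at t0. In both genes each DMSO library lay between the AZD5582 and t0 libraries of its culture. For Kit the DMSO library was the highest in each culture, with 202, 60.3 and 80.2 CPM with AZD5582, 496, 125 and 156 CPM in DMSO and 40.8, 37.2 and 35.7 CPM at t0. It was also the highest for Id3, with 8.63, 7.03 and 7.38 CPM with AZD5582, 34.4, 38.9 and 60.3 CPM in DMSO and 1.23, 7.53 and 4.34 CPM at t0.

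GM cultures, grown with 20 ng/ml GM-CSF and without FLT3L and taken on day 8, were put through the same 24 h, and the difference between the changes was tested in 1 fit of 12 libraries, in which FLT3L and the day of culture differ with the culture type. The FL change minus the GM change was called positive for 82 of 16516 genes (0.496%) and negative for 98 (0.593%), 1.09% in all (edgeR's quasi-likelihood test, culture as a block, 4 residual degrees of freedom). Leaving out GM culture 1, 2 or 3 or FL culture 94 or 95 left at most 3 positive and 7 negative calls, and leaving out FL culture 91 gave 1346 positive and 2052 negative. In the same fit 2315 genes were called higher (14% of genes tested) and 1882 lower (11.4%) in FL cultures, and 2329 higher (14.1%) and 1881 lower (11.4%) in GM cultures. Genes called higher in both numbered 1258 (54.3% of the FL calls and 54.0% of the GM calls) and genes called lower in both 870 (46.2% and 46.3%), and 27 genes higher in FL were called lower in GM and 24 the reverse.

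The cDC1 factor gene Irf8 was lower after 24 h in each FL culture and higher in each GM culture. It had 1486, 526 and 728 CPM in FL DMSO libraries against 2026, 1021 and 1089 CPM at t0, and 594, 730.0 and 705 CPM in GM DMSO libraries against 158, 169.8 and 148 CPM at t0, a log2 difference of -2.67 ± 0.22 (FL minus GM, adjusted p = 0.00815). Flt3 was higher after 24 h in both, with 81.2, 104 and 114 CPM in GM DMSO libraries against 3.94, 5.32 and 5.51 CPM at t0, a difference of -3.62 ± 0.25 (adjusted p = 0.00737). Apoe, a lipid carrier of macrophages, had 7.77, 7.22 and 6.16 CPM in FL DMSO libraries and 5.24, 3.15 and 3.25 CPM at t0, and 980.4, 630.5 and 833 CPM in GM DMSO libraries and 127, 79.1 and 79.8 CPM at t0 (-2.14 ± 0.22; adjusted p = 0.0165). Type I interferon genes had a median log2 change of -1.17 in FL cultures (6-library fit) and 0.20 in GM cultures (12-library fit), and 4 of 40 had a negative difference called and none a positive difference. For DC maturation the medians were 1.33 in FL and 2.32 in GM cultures, with 1 of 40 differences called negative, and for cDC1 markers -1.35 and -0.36, with 3 of 25 called negative.

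**Figure D4:**
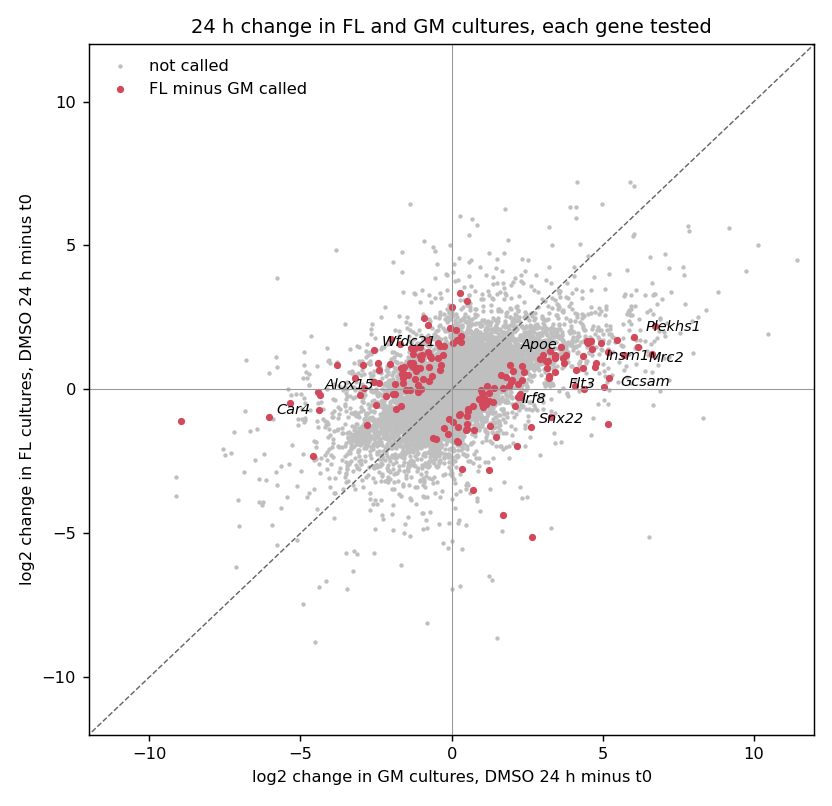
Log2 change over 24 h (DMSO minus t0) of each of 16516 genes in FL cultures (vertical axis) and GM cultures (horizontal axis) from the fit of 12 libraries, with the 82 and 98 genes whose FL minus GM difference was called positive and negative in red and the line of equal change dashed. Irf8 and Snx22 lie below 0 in FL and above 0 in GM cultures, while Gcsam, Insm1 and Mrc2 lie above 0 in both and far below the line.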

How the data were processed

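Per the labels, RNA from RNeasy columns went into TruSeq Stranded mRNA libraries, read on a NovaSeq6000. The authors deposited raw counts per gene, one table per library. The submitters' processing notes name STAR 2.7.3a, HTSeq 0.12.4, DESeq2 1.30.1 and the build GRCm39, and neither the strand setting nor the annotation used for counting is stated there or in the labels. Without the strand setting, reads of overlapping or antisense genes may not be told apart, and near copies may share reads. Symbols came from GENCODE M21, which matched 52081 of 55414 identifiers. Rows that name no gene held 12.6% to 15.8% of counts in FL libraries and 10.98% to 14.1% in GM libraries and were left out.

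Counts were tested with edgeR 4.0.16 in R 4.3.3 (TMM scaling, filterByExpr, quasi-likelihood test, Benjamini-Hochberg adjusted p under 0.05 over all genes tested). Libraries of a culture share its name in the titles, and their deviations from the group means correlated at 0.245, 0.292 and 0.108 in cultures 91, 94 and 95, so the culture was a block. CPM are scaled by TMM factors over the 15 libraries used, and within-culture changes use a prior count of 2. The tests were tried on simulated data in which 98 genes had a log2 change of 1 and 102 of 2, in either direction. The 6-library fit recovered 11.2% and 89.2% of these and made 10 false calls. The 9-library fit recovered 28.6% and 90.2% and made 7 false calls. These shares describe that trial only, and recovery in the real libraries, where the cultures differed in their changes, was not tested. There the 6-library fit called 0 of 15025 genes. In the same libraries 457 genes were at least 2-fold higher and 518 at least 2-fold lower in all 3 cultures. DESeq2 1.42.0, another scaling, no filter, no block, each culture left out and fits with 9 or 12 libraries were alternatives, and those with 12 libraries or with 9 less a culture were chosen after seeing the data. With culture as a block, the p-values measure how the change within a culture varied between 3 cultures. In the 9-library fit this includes the change with AZD5582. Nothing beyond the words biological replicates names separate animals for these cultures.

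Members and gene lists were chosen with earlier results of these data known. The rule named the 12 largest called changes in each direction with a mean of at least 10 CPM, a panel of 30 genes, called members of each list, the 6 widest ranges over cultures, and the 5 largest differences from GM cultures in each direction. Since the 6-library fit called no gene, calls of the 9-library fit were used after values were seen, and further list members were named after their values were seen. Promoters are the RefSeq windows of GRCm38.p6, matched by symbol, and were searched on both strands.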

Additional observations from a re-analysis of the deposited data

Results flagged for a closer look

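The change over 24 h differed between FL and GM cultures by the test of the difference itself for these genes, given as log2 of the FL change minus the GM change. The difference was 5.07 for Car4, a carbonic anhydrase, 4.89 for Klrb1f, a lectin-like receptor, 4.33 for Alox15, a lipoxygenase of eosinophils and macrophages, 3.94 for Wfdc21, a secreted protein, and 3.80 for Rgcc, a regulator of the cell cycle. It was -4.82 for Gcsam, a signalling protein on the cDC1 marker list, -4.68 for Mrc2, a collagen receptor, -4.21 for Plekhs1, -3.98 for Insm1, a transcription factor, and -3.93 for Snx22, a sorting nexin on the cDC1 marker list. Car4, Klrb1f and Alox15 fell in GM cultures (-6.04, -5.35 and -4.43 in the 12-library fit) and changed less in FL cultures (-0.97, -0.47 and -0.10). For Klrb1f and Alox15 the FL change turned positive in the 6-library fit without culture 91 (0.183 and 0.488). Wfdc21 and Rgcc fell in GM cultures (-2.56 and -2.94) and rose in FL cultures (1.38 and 0.85). Gcsam, Mrc2, Plekhs1 and Insm1 rose in both, more in GM cultures, while Snx22 fell in FL and rose in GM cultures (-1.30 and 2.63). The panel genes Irf8 (-2.67), Flt3 (-3.62) and Apoe (-2.14) were among the differences called. Eosinophil markers summed to 286, 2714 and 1265 CPM in FL DMSO libraries and 274, 993 and 554 CPM at t0. Their median log2 change was 1.15 in FL cultures (6-library fit) and -0.95 in GM cultures (12-library fit). The part of such cells in the Alox15 difference was not tested. Of these 13 differences, 8 lost their call without FL culture 94, 12 without FL culture 95, and 12, 11 and 13 without GM culture 1, 2 and 3.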

How the results depend on the processing

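The count of genes called over 24 h in FL cultures differed widely between the alternatives. Of 192 named genes, 187 kept their direction in all of them. Many of these were named for a call or for the same direction in all 3 cultures. Their kept direction was thus in part set by that choice and says nothing of genes at large. The count was 0 higher and 0 lower with median-of-ratios scaling, 3 and 14 without the filter on low counts, 1412 and 1617 with DESeq2, and 237 and 345 without the replicate block. It was 1473 and 1634 with 9 FL libraries and 2315 and 1882 with 12 libraries. Leaving out a culture gave from 0 to 2478 higher and from 0 to 2909 lower in the 6-library fit, and from 0 to 1651 higher and from 0 to 1989 lower in the 9-library fit. The larger value came without culture 91 each time and 0 without culture 94 or 95. In the 6-library fit that value rested on cultures 94 and 95 alone, with a smallest adjusted p of 1.39e-138 by edgeR's quasi-likelihood test. So few cultures cannot bear out such a p-value, and the counts without culture 91 do not show that more genes changed. The 9-library fit (3107 calls) and DESeq2 (3029) shared 2359 calls. The cause of these shifts was not tested.

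FL minus GM differences numbered 91 positive and 109 negative with median-of-ratios scaling, 131 and 186 without the filter, 547 and 677 with DESeq2, and 95 and 166 without the replicate block. Leaving out an FL culture gave from 0 to 1346 positive and from 1 to 2052 negative, and leaving out a GM culture from 0 to 1 of either. The GM change numbered from 1815 to 4014 genes higher and from 1435 to 3862 lower without an FL culture, and from 687 to 928 higher and from 390 to 630 lower without a GM culture.

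The other 5 named genes changed sign in some alternative. Alox15 (-0.16 on the log2 scale) was at 0.337 without the replicate block, from -0.696 to 0.488 with a culture left out, and at 0.449 with 9 libraries without culture 91. Klrb1f (-0.54) was at 0.0167, from -1.21 to 0.183, and at 0.118 in the same settings. Csf1r (-0.31) lay from -0.639 to 0.109 with a culture left out and at 0.0990 with 9 libraries without culture 91. Cd86 (0.12) lay from -0.0257 to 0.263 and Tap1 (-0.10) from -0.306 to 0.0110 with a culture left out, and with 9 libraries without culture 94 they were at -0.0389 and 0.00785. With 9 libraries and a culture left out, the ranges were -0.802 to 0.449 for Alox15, -1.38 to 0.118 for Klrb1f, -0.672 to 0.0990 for Csf1r, -0.0389 to 0.250 for Cd86 and -0.322 to 0.00785 for Tap1. Scaling moved the median of all genes by less than 0.1. Depth was 27.01 to 58.9 M counts, and its effect on the calls was not tested.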
